A study of Homo sapiens with 12 samples.

Results

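The IκB family consists of ankyrin-repeat proteins that bind NF-κB, and 6 of its genes were followed here: NFKBIA, NFKBIB, NFKBIE, NFKBIZ, NFKBID and BCL3. They were taken by gene symbol from a count table of 56634 gene symbols. All 6 were present and all 6 were among the 14822 genes that passed the filter on low counts. RNA was sequenced in bulk from HEK293, a human embryonic kidney cell line, in 12 libraries with 3 biological replicates in each of 4 groups. Control cells were given 0.1% DMSO, the vehicle, for 3 h. SnxB cells were given 1 µM Senexin B, which inhibits CDK8 and CDK19, the kinases of the Mediator complex, for the same 3 h. Tnf cells were kept in 0.1% DMSO for 1 h before TNFα, an inflammatory cytokine, was added at 10 ng/mL for 2 h. TnfSnxB cells were kept in 1 µM Senexin B for 1 h before the same TNFα treatment of 2 h. Each measurement comes from a single cell line at a single time, and in bulk RNA a change in the number of cells that express a gene cannot be told apart from a change in its RNA per cell.

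In resting cells the classical IκB proteins hold NF-κB dimers in the cytoplasm. TNF receptor signaling activates the IKK complex, which phosphorylates them and marks them for ubiquitination by the SCF β-TrCP ligase and destruction by the proteasome, and the freed NF-κB enters the nucleus and switches on its target genes. NFKBIA, which encodes IκBα, is itself such a target, so its resynthesis forms a negative feedback loop. NFKBIB and NFKBIE encode the other classical members, IκBβ and IκBε. NFKBIZ, NFKBID and BCL3 encode the atypical members IκBζ, IκBNS and BCL-3, which are mainly nuclear, bind preferentially to p50 or p52 homodimers at promoters, and can raise or lower transcription there.

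The DNA motif to which NF-κB binds, the κB consensus, was searched on both strands of RefSeq promoter windows (GRCh38.p14), which run from 250 bases before to 50 bases after a transcript start. The windows were matched by symbol for 5 of the 6 genes, 9 windows in all, and NFKBIE was not among them. Matches lay in 7 of the 9 windows, at 8 sites, with at least 1 window in each of the 5 genes, against 11.3% of 35116 windows of all genes. A looser pattern, GGG and CC with any 5 bases between them, lay in 58.7% of all windows. The 8 stretches are printed to show the matched bases and those around them. The search pattern was GGGRNNYYCC (R is A or G, Y is C or T, N is any base). Likeness at its fixed bases therefore follows from the search. The capitals mark the match, each stretch holds 30 bases, and each is written on the strand on which the matched bases read GGG first.
NFKBIA, chr14:35404811-35404840, plus strand, opposite to the gene: gtcaggctcgGGGAATTTCCaagccagtca
NFKBIB start 2, chr19:38899931-38899960, plus strand: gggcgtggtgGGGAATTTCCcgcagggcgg
NFKBIB start 2, chr19:38899989-38900018, plus strand: ctacaggcgggcgactgcGGGGGGCCCCtg
NFKBIZ start 1, chr3:101827757-101827786, plus strand: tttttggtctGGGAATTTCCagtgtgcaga
NFKBIZ start 2, chr3:101849265-101849294, plus strand: gcgcgctgtcGGGGTTTCCCggtgaagggc
NFKBID start 2, chr19:35900613-35900642, minus strand: agcgcgacccGGGGACTCCCaggcctgtgg
NFKBID start 3, chr19:35899922-35899951, plus strand, opposite to the gene: ccccgcgcaaGGGGAATTCCtgctcagccc
BCL3, chr19:44748700-44748729, plus strand: ccggctgcagGGGAAGTCCCggcgcccggc

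The same 10 bases, GGGAATTTCC, were found in NFKBIA, NFKBIB and NFKBIZ, and 51 of the 35116 windows (0.145%) held them on either strand. In NFKBIA they lay at positions -81 to -72 from the start, in NFKBIB at -28 to -19 and in NFKBIZ at -223 to -214. The other sites each had their own 10 bases, with GGGGACTCCC in NFKBID start 2 and GGGAAGTCCC in BCL3, at positions 3 to 12 after the start. A match describes the letters of the window only, and binding was not measured.

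**Figure D1:**
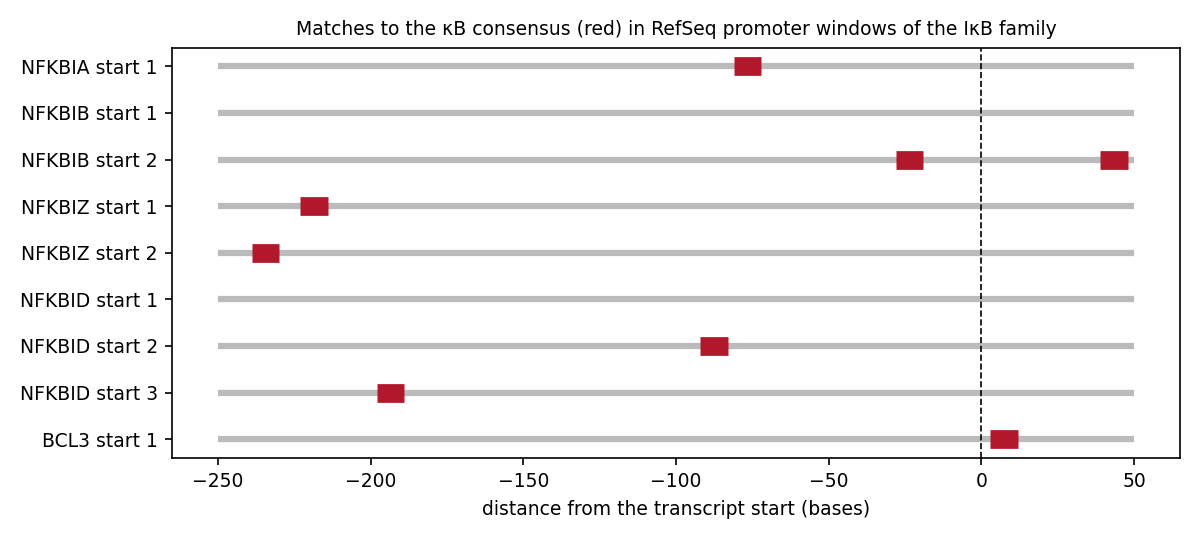
Position of each match to the κB consensus (red blocks) in the 9 promoter windows (grey lines) of 5 IκB family genes, by distance from the transcript start in bases (x axis, dashed line at the start). There are 8 sites in 7 windows, and 6 of them lie before the start.

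The 250 bases before the start are given whole for NFKBIA and for NFKBIZ start 1, the family members that Senexin B lowered most in TNFα-treated cells, written on the strand of the gene with the κB match in capitals. In NFKBIA the match reads GGAAATTCCC on the gene's strand.
NFKBIA, chr14:35404750-35404999, minus strand: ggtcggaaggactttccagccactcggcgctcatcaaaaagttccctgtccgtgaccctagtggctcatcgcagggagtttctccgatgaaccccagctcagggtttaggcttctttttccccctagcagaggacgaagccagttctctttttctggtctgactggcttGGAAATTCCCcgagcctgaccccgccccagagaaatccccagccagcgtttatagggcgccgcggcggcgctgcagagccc
NFKBIZ start 1, chr3:101827740-101827989, plus strand: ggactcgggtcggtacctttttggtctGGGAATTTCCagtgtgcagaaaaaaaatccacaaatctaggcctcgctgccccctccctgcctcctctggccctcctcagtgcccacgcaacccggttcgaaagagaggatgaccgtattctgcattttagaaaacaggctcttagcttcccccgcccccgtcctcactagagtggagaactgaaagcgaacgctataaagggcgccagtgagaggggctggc

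The libraries held 8705277 to 50943310 counts, with Tnf library 2 at 4.87 times the median total of the others. The chi-square per degree of freedom between libraries of a group was 1.064 to 1.541, except that TnfSnxB library 1 differed from libraries 2 and 3 by 5.337 and 5.088. A value of 1 means no spread beyond counting noise, so most libraries of a group differed little beyond it. The p-values rest on this spread between libraries. TnfSnxB libraries 2 and 3 also carried a trend with GC content (Spearman -0.683 and -0.682 across genes, against -0.117 to 0.448 in the other 10), so the main comparisons of TnfSnxB with Tnf cells are also given after a GC and length correction and with TnfSnxB library 1 alone. All 8 HEK293 genes checked (PAX2, LHX1, NEFL, NEFM, KRT8, KRT18, EPCAM and CDH2) had counts and 6 were among the genes tested. None of the 7 leukocyte genes and 4 endothelial genes passed the filter, with CD3E and CDH5 at 0 counts in all libraries. Of 5 fibroblast genes 2 passed it, with DCN at 0 counts. The sum of the 5 was 15.0 to 19.0 CPM per library, beside 473 to 540 CPM for the HEK293 genes.

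Between genes, levels are compared as library-scaled counts (CPM, TMM-scaled) per kb of summed exon length. The order of genes with close levels depends on the length used. NFKBIA and NFKBIB have 2373 and 2324 bases of summed exons, but 1558 and 2200 bases in their longest transcripts. Orders and overlaps below hold for summed exon length. In control cells the order was NFKBIB at 14.8, NFKBIA at 11.5, NFKBIE at 3.30, NFKBIZ at 1.06, NFKBID at 0.809 and BCL3 at 0.506 CPM per kb, and only the libraries of NFKBIZ and NFKBID overlapped between neighbours. SnxB cells showed the same order, with NFKBIB at 14.2 and NFKBIA at 12.97 CPM per kb overlapping. Under TNFα NFKBIA led at 114 CPM per kb, followed by NFKBIB at 17.9, NFKBIE at 5.85, NFKBIZ at 1.91, BCL3 at 1.45 and NFKBID at 0.709 CPM per kb, with no overlap between neighbours. BCL3 thus passed NFKBID. In TnfSnxB cells BCL3, at 1.52 CPM per kb, also stood above NFKBIZ at 1.25 CPM per kb, without overlap by this length.

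The summed per-length level of the 6 genes was 31.9 ± 1.82 CPM per kb in control cells and 32.8 ± 0.536 in SnxB cells (SD, n = 3 each). It was 142 ± 0.414 CPM per kb in Tnf cells and 97.7 ± 6.38 in TnfSnxB cells (SD, n = 3 each). NFKBIB made up 46.2% ± 2.98 of that sum in control cells and 12.6% ± 0.578 in Tnf cells, while NFKBIA made up 36.1% ± 2.71 and 80.4% ± 0.585 (SD, n = 3 each). In TnfSnxB cells the share of NFKBIA was 74.9% ± 0.531 (SD, n = 3). By transcript, the sum over these 6 genes was therefore mainly NFKBIB and NFKBIA before TNFα and mainly NFKBIA after it.

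**Figure D2:**
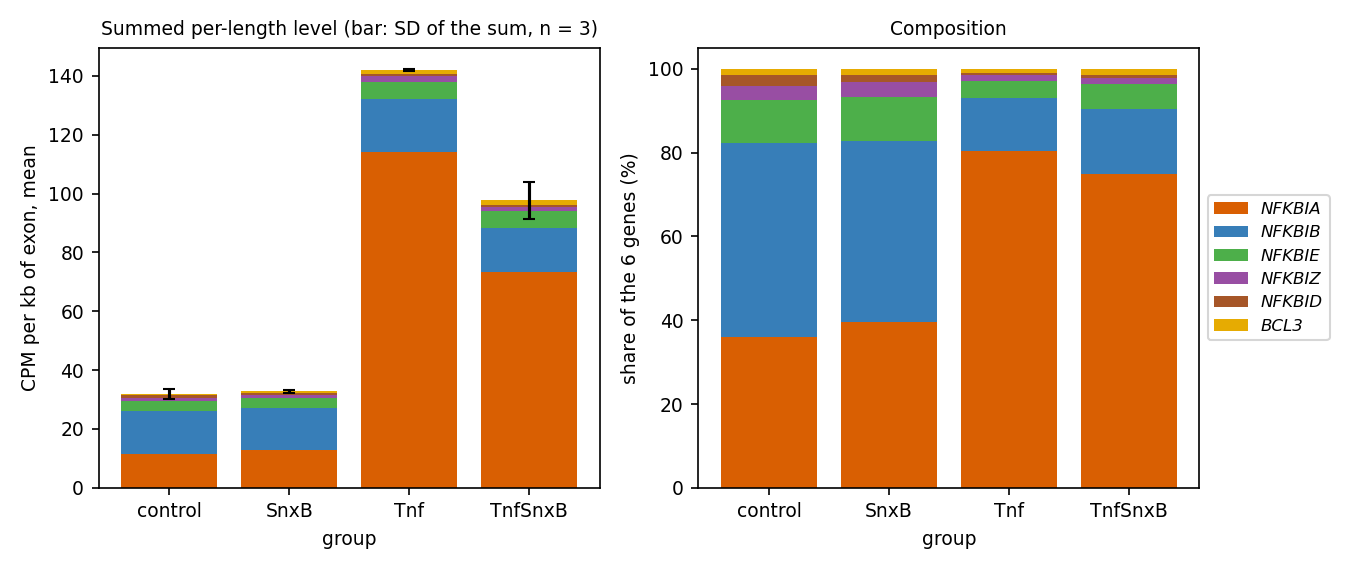
Left, summed CPM per kb of exon of the 6 genes in each group, stacked by gene, with the SD of the sum over 3 libraries. Right, each gene's mean share of that sum in percent. The sum stood at 142 CPM per kb in Tnf cells and 31.9 in control cells, and NFKBIA held 80.4% and 36.1% of it.

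TNFα raised 5 of the 6 genes: NFKBIA 9.93-fold, BCL3 2.95-fold, NFKBIE 1.80-fold, NFKBIZ 1.76-fold and NFKBIB 1.22-fold. NFKBID, at a fold of 0.943, did not pass the test. Of all genes tested 2.02% were called, 1.43% higher and 0.594% lower (edgeR, adjusted p under 0.05). The libraries of both groups were separate for the same 5 genes, and were separate for 20.2% of all genes. The median log2 fold change was 0.83 over the 6 genes and 0.00 over all genes.

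With Senexin B alone none of the 6 genes passed the test, with 2.03% of all genes called, 0.344% higher and 1.69% lower. By DESeq2 the count was also 0, and 1 gene, NFKBIA, had an unadjusted p under 0.05 in edgeR. The libraries were separate for NFKBIA, slightly higher with Senexin B, and NFKBID, lower with it, and were separate for 20.4% of all genes.

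In TNFα-treated cells Senexin B lowered 3 of the 6 genes: NFKBIA 1.57-fold, NFKBIZ 1.48-fold and NFKBIB 1.18-fold. NFKBIE and BCL3 stood at folds of 0.976 and 1.00, with 95% intervals of -0.24 to 0.17 and -0.28 to 0.29 on the log2 scale. After a GC and length correction these values were 0.15 for NFKBIE and 0.29 for BCL3, and with TnfSnxB library 1 alone -0.00089 and 0.20, none of them called. Of all genes 27.2% were called in this comparison, 13.3% higher and 13.9% lower, so that a call is common in it. The libraries of TnfSnxB and Tnf were separate for the same 3 genes, and for 32.1% of all genes. NFKBIA and NFKBIZ were also called lower after the GC and length correction and with TnfSnxB library 1 alone, whereas NFKBIB was called in neither.

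In cells given Senexin B first, TNFα raised NFKBIA 5.63-fold, BCL3 3.04-fold and NFKBIE 1.66-fold, 3 of the 6 genes, with 14.2% of all genes called, 7.38% higher and 6.83% lower. The libraries were separate for those 3 genes and for NFKBIZ and NFKBID, against 22.7% of all genes. The interaction, the TNFα effect with Senexin B minus that without it on the log2 scale, was called for NFKBIA alone, with 2.50% of all genes called, 0.891% higher and 1.61% lower. Comparisons that use the same group share its 3 libraries, so their values are given side by side and are not independent.

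**Figure D3:**
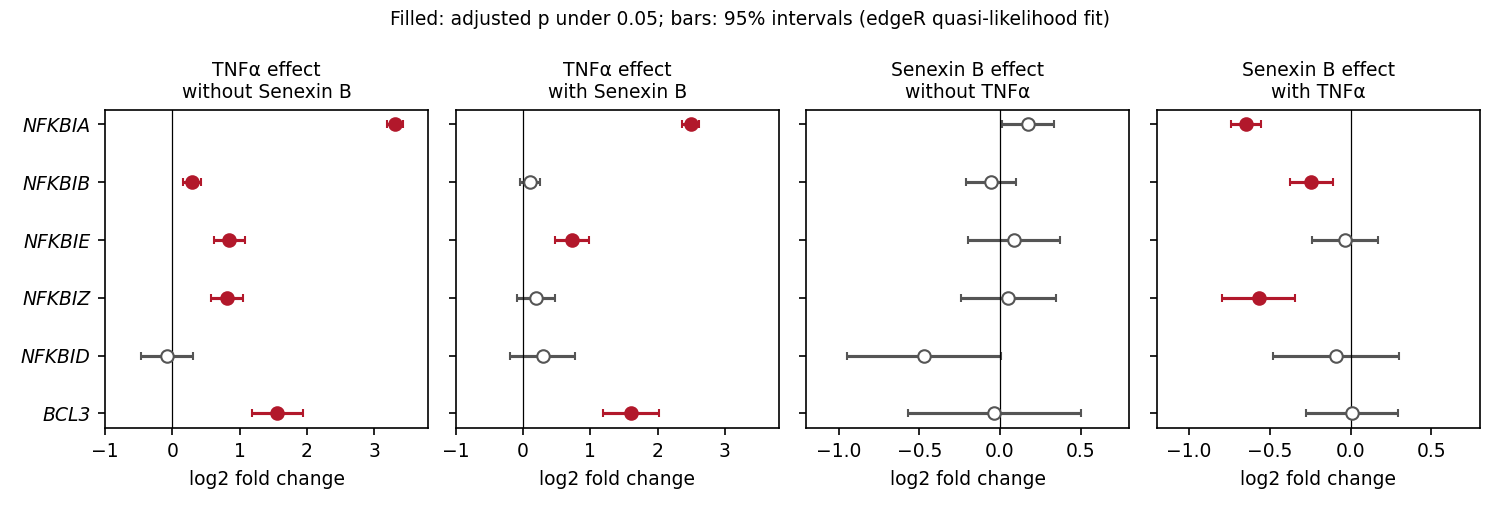
Log2 fold change (x axis) of each IκB family gene in 4 comparisons, with 95% intervals; filled red points have an adjusted p under 0.05 (edgeR) and open points do not. The TNFα panels and the Senexin B panels have different x scales. Without Senexin B 5 genes are filled, with it 3; Senexin B fills none without TNFα and 3 with it.

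Gene positions are those of GENCODE 29 (GRCh38). NFKBIA (ENSG00000100906.10, chr14:35401511-35404749, minus strand) stood at 25.2, 27.7 and 28.97 CPM in the control libraries and at 32.6, 29.9 and 29.8 CPM in the SnxB libraries. In the Tnf libraries it stood at 272.2, 271.4 and 269.0 CPM, and in the TnfSnxB libraries at 188, 168 and 165 CPM. All 3 Tnf libraries lay within a narrow range far above the rest, the TnfSnxB libraries lay between them and the untreated ones, and no libraries of different groups overlapped. The log2 fold change with TNFα was 3.31 (SE 0.0585, edgeR adjusted p = 2.28e-26) without Senexin B and 2.49 (SE 0.061, adjusted p = 1.94e-22) with it.

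The interaction of NFKBIA was -0.82 (SE 0.0907, 95% interval -1.003 to -0.63, edgeR adjusted p = 1.28e-05), and over all alternatives its adjusted p was at most 0.000428. TnfSnxB against Tnf gave -0.65 (SE 0.0458, adjusted p = 1.74e-11), -0.58 after the GC and length correction and -0.53 with TnfSnxB library 1 alone. In CPM, TNFα added 244 (SE 1.48) without Senexin B and 143 (SE 7.26) with it, which is 58.7% of the gain, or 64.5% with TnfSnxB library 1 alone. NFKBIA still rose, and remained the most abundant member per length, in the presence of the inhibitor. Senexin B without TNFα gave 0.17 (95% interval 0.01 to 0.33), with an unadjusted p of 0.0362 and an adjusted p of 0.363 in edgeR's test.

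NFKBIB (ENSG00000104825.16, chr19:38899700-38908893, plus strand), which encodes IκBβ, moved least among the genes that TNFα raised. It stood at 34.6, 37.2 and 31.0 CPM in control libraries and at 39.7, 41.6 and 43.7 CPM in Tnf libraries. The SnxB libraries stood at 32.4, 31.5 and 34.9 CPM and the TnfSnxB libraries at 37.5, 33.1 and 35.6 CPM. The Tnf libraries were thus the highest, and the other 3 groups overlapped each other. The log2 fold change with TNFα was 0.29 (SE 0.0664, edgeR adjusted p = 0.0119), and the call was lost without control library 1 or 3 or Tnf library 2 or 3, with adjusted p of 0.0533, 0.202, 0.0977 and 0.0788. Under TNFα, Senexin B lowered it by 0.24 on the log2 scale, a change of -0.24 (SE 0.0652, edgeR adjusted p = 0.00723). That value was -0.06 (adjusted p = 0.563) after the GC and length correction, -0.15 (adjusted p = 0.487) with TnfSnxB library 1 alone and -0.20 (adjusted p = 0.0681) without TnfSnxB library 2. In TnfSnxB against SnxB it was 0.10 (adjusted p = 0.383), and 0.25 with an adjusted p of 0.00888 after the correction. NFKBIB shares 40 exon bases (1.72% of its exon length) with SIRT2 on the opposite strand, and the strand setting of the counting is not given in the sources used here.

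NFKBIE (ENSG00000146232.16, chr6:44258166-44265788, minus strand), which encodes IκBε, was raised by TNFα to a similar level with and without the inhibitor. Its control libraries stood at 6.68, 10.4 and 8.45 CPM and its SnxB libraries at 7.86, 10.0 and 8.78 CPM. The Tnf libraries stood at 15.1, 15.4 and 14.8 CPM and the TnfSnxB libraries at 15.3, 15.7 and 13.7 CPM. Every library with TNFα lay above every library without it, and within each of these sets both groups overlapped. The log2 fold change was 0.85 (SE 0.114, edgeR adjusted p = 9.03e-06) without Senexin B and 0.73 (SE 0.123, adjusted p = 0.000303) with it. The interaction was -0.12 (95% interval -0.47 to 0.23, edgeR adjusted p = 0.716; 0.078 after the GC and length correction and -0.088 with TnfSnxB library 1 alone), an interval that allows a smaller or a larger rise with Senexin B. The gain with Senexin B was 91.3% of that without it, and 96.7% with TnfSnxB library 1 alone.

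NFKBIZ (ENSG00000144802.11, chr3:101827991-101861022, plus strand), which encodes IκBζ, a nuclear cofactor for a subset of inflammatory genes, stood at 7.29, 6.28 and 5.26 CPM in control and at 6.50, 6.16 and 6.88 CPM in SnxB libraries. The Tnf libraries stood at 11.4, 10.5 and 12.0 CPM and the TnfSnxB libraries at 7.02, 7.18 and 8.01 CPM. The Tnf libraries were well above all others, and the lowest TnfSnxB library lay below the highest control library. TNFα gave a log2 fold change of 0.82 (SE 0.116, edgeR adjusted p = 2.4e-05) without Senexin B and 0.20 (95% interval -0.08 to 0.48, adjusted p = 0.346) with it. Senexin B lowered it under TNFα by 0.57 on the log2 scale (SE 0.11, 95% interval -0.79 to -0.34, edgeR adjusted p = 0.000515), with -0.60 after the GC and length correction and -0.64 with TnfSnxB library 1 alone (adjusted p = 0.0286).

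TNFα added 5.03 CPM (SE 0.719) of NFKBIZ without Senexin B and 0.893 CPM (SE 0.369) with it, or 17.8% of the gain, and 10.2% with TnfSnxB library 1 alone. This was the smallest share among the 5 genes raised by TNFα. The difference between these TNFα effects, an interaction of -0.62 (SE 0.182, 95% interval -0.99 to -0.25), had an adjusted p of 0.0579 in edgeR and did not pass the test. The edgeR adjusted p was 0.0422 with the replicate number as a block and 0.0142 without TnfSnxB library 1. That last fit keeps only TnfSnxB libraries 2 and 3, which carry the GC trend. After the GC and length correction the interaction was -0.66 (edgeR adjusted p = 0.107), and without control library 3 it was -0.50 (adjusted p = 0.19), neither of them called. With TnfSnxB library 1 alone it was -0.69. With a GC content of 46.2% in its longest transcript, NFKBIZ was the member poorest in GC, whereas the other 5 had 53.1% to 67.4%.

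BCL3 (ENSG00000069399.14, chr19:44747705-44760044, plus strand) was first known as a gene at a translocation breakpoint in leukemia, and its protein binds p50 and p52 homodimers. It was scarce, with 13 to 22 counts in each control and SnxB library, and stood at 1.30, 1.72 and 1.90 CPM in control and at 1.48, 1.61 and 1.69 CPM in SnxB libraries. The Tnf libraries stood at 4.43, 5.04 and 4.67 CPM and the TnfSnxB libraries at 5.597, 4.79 and 4.43 CPM. As with NFKBIE, all libraries with TNFα were above all those without it and Senexin B made no separation. The log2 fold change with TNFα was 1.56 (SE 0.182, edgeR adjusted p = 7e-07) without and 1.60 (SE 0.204, adjusted p = 3.46e-06) with Senexin B. The interaction was 0.04 (95% interval -0.56 to 0.65, adjusted p = 0.978), and 0.35 after the GC and length correction and 0.23 with TnfSnxB library 1 alone (adjusted p = 0.813 and 0.947), with a wide interval for a gene with few counts. The gain with Senexin B was 109% of that without it, and 130% with TnfSnxB library 1 alone. BCL3 shares 65 exon bases (2.00%) with the microRNA gene MIR8085 on the same strand.

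NFKBID (ENSG00000167604.14, chr19:35887653-35902303, minus strand), which encodes IκBNS, was the member without a call in any comparison. It stood at 2.86, 2.23 and 2.67 CPM in control, 1.82, 1.89 and 1.90 CPM in SnxB, 2.10, 2.68 and 2.02 CPM in Tnf, and 2.74, 2.07 and 2.22 CPM in TnfSnxB libraries. The SnxB libraries, with 16 to 20 counts each, were the lowest and closest together, and the other 3 groups overlapped. The log2 fold change with TNFα was -0.09 (95% interval -0.47 to 0.30, edgeR adjusted p = 0.967). With Senexin B alone it was -0.47 (95% interval -0.95 to 0.01, unadjusted p = 0.0557, edgeR adjusted p = 0.435). NFKBID shares 111 exon bases (3.47%) with AD000864.1, a further gene model on the same strand.

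**Figure D4:**
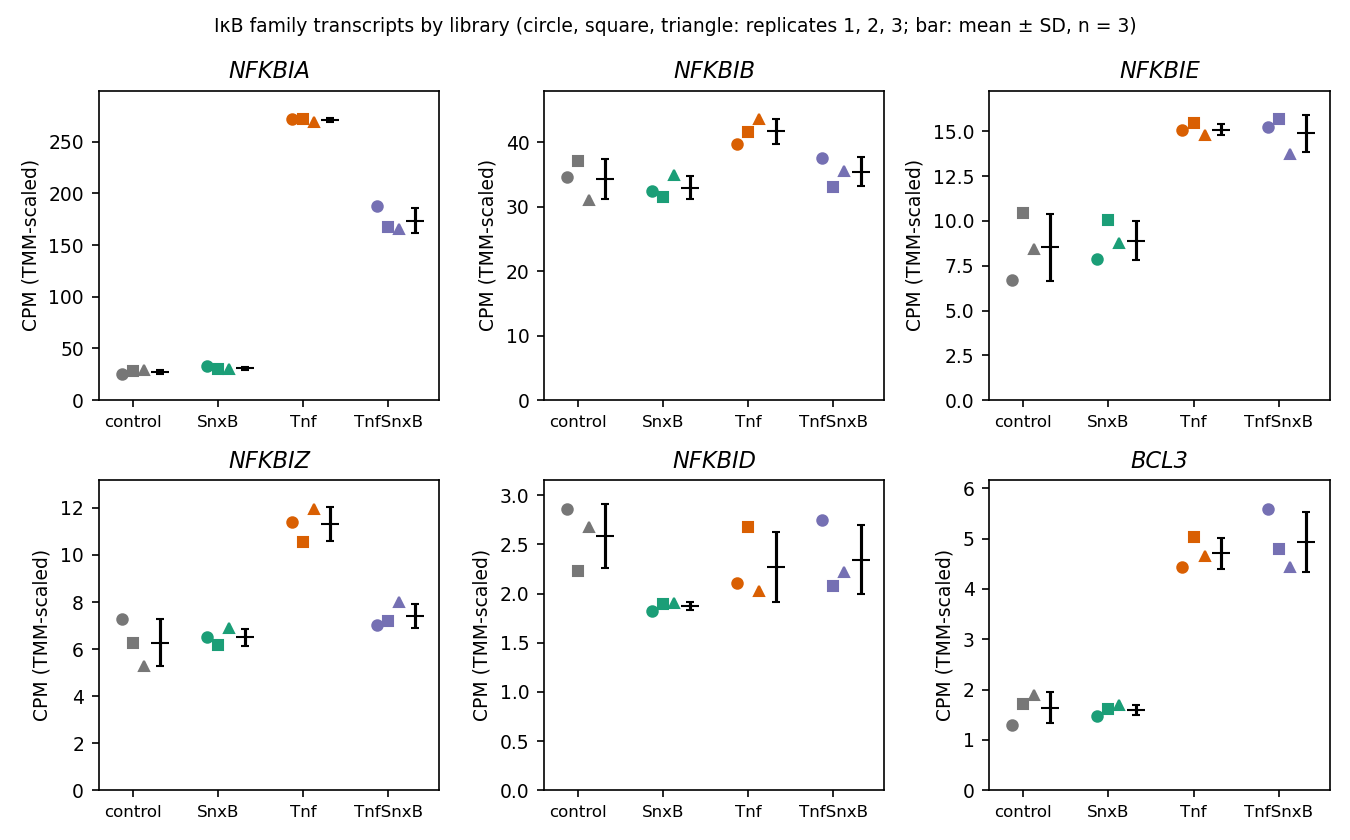
CPM (y axis, from 0, a scale of its own for each gene) of the 6 IκB family genes in the 12 libraries, with the mean and SD of each group of 3. NFKBIA and NFKBIZ are highest in Tnf libraries and lower in TnfSnxB libraries, NFKBIE and BCL3 are high in both, and NFKBID does not separate Tnf from control.

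Among the 5 genes that TNFα raised, the gain in CPM with Senexin B ran from 17.8% of that without it in NFKBIZ, through 33.4% in NFKBIB, 58.7% in NFKBIA and 91.3% in NFKBIE, to 109% in BCL3. With TnfSnxB library 1 alone NFKBIB stood at 62.2%, close to NFKBIA at 64.5%, and NFKBIZ, NFKBIE and BCL3 stood at 10.2%, 96.7% and 130%. The place of NFKBIB is uncertain, as its gains were 7.39 CPM (SE 2.1) without Senexin B and 2.47 CPM (SE 1.64) with it. After the GC and length correction the log2 fold change of NFKBIB with TNFα was 0.249 without Senexin B and 0.252 with it. Its interaction was not called with or without the correction. The 95% intervals of TnfSnxB against Tnf were -0.74 to -0.55 for NFKBIA and -0.79 to -0.34 for NFKBIZ. Those of NFKBIE, -0.24 to 0.17, and BCL3, -0.28 to 0.29, did not overlap them, but the difference between genes was not tested.

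**Figure D5:**
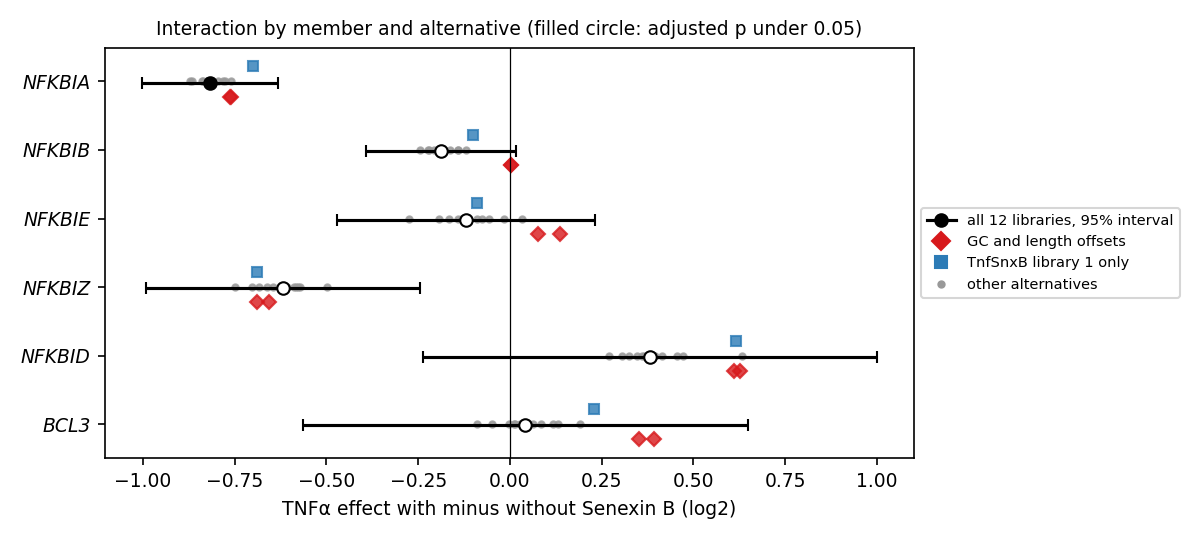
Interaction (log2 scale, x axis) of each IκB family gene, with its 95% interval (black; filled where the adjusted p is under 0.05) and the value under each alternative: red for GC and length offsets, blue for TnfSnxB library 1 alone and grey for the others. NFKBIA and NFKBIZ lie below 0 under every alternative plotted, at -0.82 and -0.62 with all 12 libraries, while NFKBIE and BCL3 cross 0.

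The other genes of the pathway were counted in lists by their role. Each count stands beside the share of all genes called, 2.02% with TNFα and 27.2% in TnfSnxB against Tnf. With TNFα after Senexin B that share was 14.2%, and in the interaction 2.50%. Of the 5 NF-κB subunits 4 rose with TNFα: RELB by 3.55, NFKB2 by 1.81, NFKB1 by 1.14 and REL by 0.66 on the log2 scale, while RELA was not called. RELA was called at 0.13 when TnfSnxB libraries 2 and 3 were left out of the fit. With Senexin B first, the same number, 4, rose. The list's median was 1.14 without and 1.13 with Senexin B. Between TnfSnxB and Tnf cells REL was higher by 0.36 and NFKB2 and RELB were lower, at -0.21 and -0.26, with NFKB1 at 0.08 and not called. In that comparison 1 subunit was called after the GC and length correction and 0 with TnfSnxB library 1 alone. None of the 5 had a called interaction.

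Upstream of the IκB proteins, none of 6 genes, which encode the IKK complex, IKK-related kinases and MAP3K14, was called with TNFα. Between TnfSnxB and Tnf cells 2 were higher, TBK1 by 0.33 and CHUK, which encodes IKKα, by 0.18, and 2 were lower, IKBKE at -0.41 and MAP3K14, the NF-κB-inducing kinase, at -0.36. After the GC and length correction 1 of them, TBK1, was called, and 0 with TnfSnxB library 1 alone. Of the 14 genes from the TNF receptor to IKK, 1 rose with TNFα, BIRC3, which encodes the ubiquitin ligase cIAP2, by 2.25, and TRAF2 was also called after the GC and length correction, at 0.16, and without TnfSnxB libraries 2 and 3, at 0.20. In TnfSnxB against Tnf 3 were higher and 4 lower, where 27.2% of all genes were called. BIRC2, which encodes cIAP1, was higher by 0.38 and TAB2, an adaptor of the kinase TAK1, by 0.28. They stood at 0.21 and 0.14 after the GC and length correction and at 0.27 and 0.22 with TnfSnxB library 1 alone, and were called in both, with an adjusted p in edgeR of at most 0.0357 and 0.0176 over the alternatives. MAP3K7, which encodes TAK1, at 0.15, and SHARPIN, TNFRSF1A, TRAF2 and RIPK1, at -0.24, -0.21, -0.18 and -0.17, were called neither after the correction nor with TnfSnxB library 1 alone. The choice to name MAP3K7, TNFRSF1A and RIPK1 followed a look at their values.

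Of the 11 feedback inhibitors other than the IκB proteins, 4 rose with TNFα and none fell. TNFAIP3, which encodes the ubiquitin-editing enzyme A20, rose by 3.51, TRAF3 by 0.62, TNIP1, a partner of A20, by 0.44, and CYLD, a deubiquitinase named after its value was seen, by 0.27. In TnfSnxB against Tnf 1 was higher, TAX1BP1 by 0.20, and 2 were lower, TNFAIP3 at -0.22 and TNIP2 at -0.28. That is close to the 27.2% of all genes called. After the GC and length correction TNFAIP3 at -0.20, TAX1BP1 at 0.18 and ZFAND5 at -0.22, a gene named after a look at its value, were called, and none was called with TnfSnxB library 1 alone. TNFAIP3 rose about as much as NFKBIA with TNFα, at 3.51 and 3.31, and stood at -0.22 and -0.65 in TnfSnxB against Tnf.

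A list of 9 genes covered the SCF β-TrCP ligase, which ubiquitinates phosphorylated IκB, and proteins that work with it. None of the 9 was called with TNFα, except UBE2D3 at 0.10 after the GC and length correction. In TnfSnxB against Tnf 3 were called higher, UBE2D1 by 0.22, BTRC by 0.16 and FBXW11 by 0.14. Of all genes 27.2% were called there, 13.3% higher. With the GC and length correction a different set of 3 was called, all lower: NEDD8 at -0.18, RBX1 at -0.13 and UBE2D3 at -0.11, and with TnfSnxB library 1 alone 0 were called. Of 4 RNA-binding factors that act on NFKBIZ or NFKBID mRNA, none was called with TNFα, with ZFP36 at 0.40 (edgeR adjusted p = 0.377) and ZC3H12A at 0.25 (adjusted p = 0.593). RC3H2 was higher by 0.23 in TnfSnxB against Tnf, and was called neither after the correction nor with TnfSnxB library 1 alone. The IκB-like genes NFKBIL1 and ANKRD42 had no call in any comparison with all 12 libraries uncorrected. NFKBIL1, at 0.12 in TnfSnxB against Tnf, was called there at 0.38 after the GC and length correction (edgeR adjusted p = 0.000156) and at 0.37 with TnfSnxB library 1 alone (adjusted p = 0.0442).

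Of 17 common NF-κB target genes 13 passed the filter on low counts, and 12 of these rose with TNFα. Genes such as CXCL1, at 0.265 CPM in control and 14.9 CPM in Tnf cells, passed it through the TNFα groups, so the counts describe the genes tested and not the list. With Senexin B, 10 of the 13 were lower in TnfSnxB than in Tnf cells and none was higher, with 10 lower after the GC and length correction and 6 with TnfSnxB library 1 alone. CXCL1, a chemokine, stood at -2.32, IER3, an early response gene, at -1.35, and SDC4, a cell surface proteoglycan, at -0.78. CD83, an immunoglobulin-family surface protein, stood at -0.40, beside -0.65 for NFKBIA and -0.57 for NFKBIZ. After Senexin B, TNFα also raised 12 of the 13. SOD2, an antioxidant enzyme named after a look at its value, stood at -0.00048 with TNFα alone (edgeR adjusted p = 0.999).

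For each IκB gene that TNFα raised, the genes with the most similar pattern were found by the root mean square (RMS) difference of log2 CPM, centred on each gene's mean, over the 12 libraries. Among the 14134 genes whose mean was at least 1 CPM, the nearest to NFKBIA were RELB at 0.245, TNFAIP3 at 0.282 and CXCL3 at 0.298, and NFKBIA itself varied by an RMS of 1.46. The nearest to BCL3 were EFNA1 at 0.173, NFKB1 at 0.179 and IRF1 at 0.189, beside its own 0.677. These include subunits and targets of NF-κB. NFKBIE, with its own RMS of 0.410, had OPTN at 0.155 and SLC16A9 at 0.161 among its nearest. NFKBIZ, with 0.338, had DDX58 at 0.167, FZD9 at 0.169 and ELMSAN1 at 0.172. NFKBIB, with 0.149, had PISD at 0.0661, SNAPC4 at 0.0747 and PIM3 at 0.075. For these 3 genes the differences are large beside the gene's own variation, so the likeness is weaker than for NFKBIA and BCL3.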

How the data were processed

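The deposited values are raw counts for each gene symbol in 12 libraries, without normalization. Per the submitters' processing notes, the build was hg38 (GRCh38) and the tools were featureCounts (Subread 1.4.6), SAMtools 1.2 and STAR 2.4; the annotation is not given in the sources used here, nor is the strand setting.

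Counts were filtered (filterByExpr), scaled by TMM and fitted with edgeR 4.0.16 (R 4.3.3, limma 3.58.1; group means, all 12 libraries). Contrasts were tested by its two-sided quasi-likelihood F test with Benjamini-Hochberg adjustment over 14822 genes, at an adjusted p under 0.05. Log2 fold changes come from this fit. Library totals were 8705277 to 50943310 counts, and 3 counts corresponded to 0.0589 to 0.345 CPM. Alternatives were DESeq2 1.42.0, other scaling and filters, only the groups compared, a replicate block, GC content and length offsets (loess, span 0.4; GENCODE 29, matched for 90.5% of genes), and leaving out libraries. Pattern likeness used a pseudocount of 0.5 CPM, and 1 similar gene is not reported here. Promoters came from RefSeq (GRCh38.p14). The tests were checked on simulated data.

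The members, lists and named-gene rule (all 6 members, and up to 3 genes per list with the smallest adjusted p in Tnf against control and in TnfSnxB against Tnf) were chosen with earlier results of these data known.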

Additional observations from a re-analysis of the deposited data

Results flagged for a closer look

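The effect of TNFα on NFKBIA differed between cells with and without Senexin B. The interaction in edgeR was -0.82 on the log2 scale (SE 0.0907, adjusted p = 1.28e-05). All 3 TnfSnxB libraries, at 165 to 188 CPM, lay below all 3 Tnf libraries, at 269 to 272 CPM, and the SnxB and control libraries lay at 25.2 to 32.6 CPM. The value was -0.76 after the GC and length correction and -0.70 with TnfSnxB library 1 alone.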

How the results depend on the processing

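NFKBIA, NFKBIZ, NFKBIE and BCL3 kept their direction and their calls in Tnf against control under every alternative run, as did NFKBIA and NFKBIZ in TnfSnxB against Tnf and NFKBIA in the interaction. Of the alternative log2 values of the 6 genes, 547 kept direction and call, 4 gained a call, 8 lost it and 25 changed sign. Values without a DESeq2 adjusted p were left out of these counts. The number of the 6 genes called was 4 to 5 in Tnf against control and 2 to 3 in TnfSnxB against Tnf when each library was left out, and 1 to 2 in the interaction, where it was 2 with the replicate number as a block (NFKBIZ added). Same-numbered libraries of different groups correlated at -0.04 to 0.094, and 3 of 12 correlated best with their own number. Most libraries of a group differed little beyond counting noise, so these correlations cannot tell whether same-numbered samples were paired. The block gave 736 interaction calls over all genes and changed no other call of the 6 genes.

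Over all genes, 300, 301, 4029 and 2106 calls (Tnf against control, SnxB against control, TnfSnxB against Tnf, TnfSnxB against SnxB) became 776, 742, 2442 and 504 with only the groups compared, which could not be fitted for the interaction. They became 568, 707, 1760 and 739 with GC and length offsets, 563, 729, 1781 and 771 with these and the replicate block, and 858, 864, 403 and 219 without TnfSnxB libraries 2 and 3. The 370 interaction calls became 45, 75 and 19 under these last settings and 711 without the low-count filter. Leaving out each library gave ranges of 177 to 874, 172 to 879, 1869 to 6769, 512 to 5391 and 3 to 4534. The cause was not tested.

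By coding length, NFKBIA made up 39.7%, 43.4%, 82.7% and 77.9% of the family in control, SnxB, Tnf and TnfSnxB cells, and in SnxB cells NFKBIA stood above NFKBIB. With plain library totals, an alternative chosen after seeing the data, the nearest genes in pattern had the same ranks.

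The values of the IκB family genes and of CHUK, SHARPIN, TRAF2 and UBE2D1 that changed sign, given below, were small. None of these was called under the setting in which its sign changed. UBE2D3 also changed sign in TnfSnxB against Tnf. It stood at 0.061 with all 12 libraries uncorrected, not called. With GC and length offsets it was called at -0.11 (edgeR adjusted p = 0.0026). CHUK, SHARPIN, TRAF2 and UBE2D1 had been called in TnfSnxB against Tnf with all 12 libraries uncorrected, at 0.18, -0.24, -0.18 and 0.22. With GC and length offsets, and with these and the replicate block, the interaction was 0.0030 and 0.0039 for NFKBIB and 0.078 and 0.14 for NFKBIE, and TnfSnxB against Tnf was 0.15 and 0.20 for NFKBIE, 0.12 and 0.14 for NFKBID, -0.018 and -0.019 for CHUK, 0.045 and 0.047 for SHARPIN, 0.0093 and 0.014 for TRAF2, and, with both, -0.0087 for UBE2D1. Without TnfSnxB libraries 2 and 3 it was 0.14 for NFKBID and 0.012 for TRAF2, and without the filter -0.015 for BCL3. When each library was left out, values in SnxB against control ranged from -0.12 to 0.0024 for NFKBIB, from -0.067 to 0.24 for NFKBIE (also -0.018), from -0.069 to 0.18 for NFKBIZ and from -0.18 to 0.094 for BCL3 (also 0.010). In TnfSnxB against Tnf they ranged from -0.082 to 0.028 for NFKBIE, from -0.20 to 0.16 for NFKBID and from -0.083 to 0.097 for BCL3, and in the interaction from -0.27 to 0.033 for NFKBIE and from -0.089 to 0.19 for BCL3.

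Depth limits BCL3 and NFKBID most, with 13 to 33 counts per control or SnxB library. Where the interval of a comparison of theirs includes 0, the data are compatible with no difference and with any difference within the interval.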
